A study of Caenorhabditis elegans with 2 samples.

Results

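The X chromosome held 305 of the 2409 peaks that passed the authors' reproducibility step in a ChIP-seq experiment on an eGFP-tagged W03F9.2 protein in Caenorhabditis elegans. These peaks were chosen only by the chromosome on which they lie, and every one of the 305 is accounted for below. They were set beside the 2084 peaks of the 5 autosomes, and the 20 mitochondrial peaks were left aside. ChIP-seq sequences DNA that is precipitated together with a chromatin protein, and a peak is a place where such DNA piles up.

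All samples belong to 1 group. They were whole worms of strain OP215, which carries the mutant allele unc-119(ed3) on chromosome III together with the integrated transgene wgIs215, collected at the L4/young adult stage with both sexes pooled, per the labels. Whether the antibody recognised W03F9.2 itself or its eGFP tag is not settled by the labels, which name the first as antibody target and the second in the description. There were 2 biological replicates and no untagged or otherwise treated group, and the read depth of each sample is unknown. No test over samples could therefore be made: peaks of a single experiment are not replicates, and shares below carry 95% Clopper-Pearson (exact) intervals that cover counting error only. The spread between samples is shown by giving the same value in each replicate's own list.

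In worms the X chromosome has its own regulation. In XX animals a condensin-like dosage compensation complex is loaded at recruitment elements on X and spreads along the chromosome, lowering transcription, and many of those elements hold a sequence called MEX, for motif enriched on X. The X is also poor in genes expressed in the germ line and in housekeeping genes, and rich in tRNA genes, which RNA polymerase III transcribes from promoter elements inside the gene, the A and B boxes. Annotated starts of worm genes often mark a trans-splice site rather than the first transcribed base, so distances to starts are approximate.

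Of the 20 X peaks of highest signal, 6 were at promoters and 10 held the core of MEX. The core, the 8 letters GCGCAGGG read on both strands, lay within 50 bp of the summit in 11 of the 305 X peaks (3.61%, interval 1.81 to 6.36%) and in 1 of the 2084 autosomal peaks (0.0480%, interval 0.00121 to 0.267%). The remaining 285 X peaks thus held it in 1 case. The stretches around those cores are shown because they carry this result. Each is read in the direction of the core, which is in capitals, with 16 bases on either side, from the WBcel235 assembly of RefSeq, which is the same build as ce11.
nearest start gtr-1, chrX:806658-806697, plus strand: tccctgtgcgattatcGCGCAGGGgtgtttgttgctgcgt
nearest start ins-39, chrX:1345040-1345079, plus strand: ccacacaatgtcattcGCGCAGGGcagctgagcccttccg
nearest start T24D8.6, chrX:2364883-2364922, minus strand: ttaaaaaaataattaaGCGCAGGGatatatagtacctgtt
nearest start F20B6.9, chrX:4209250-4209289, minus strand: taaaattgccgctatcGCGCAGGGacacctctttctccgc
nearest start dpy-23, chrX:4395599-4395638, plus strand: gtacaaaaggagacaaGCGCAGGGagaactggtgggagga
nearest start cest-16, chrX:6296560-6296599, plus strand: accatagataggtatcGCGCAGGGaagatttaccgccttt
nearest start xol-1, chrX:8036419-8036458, plus strand: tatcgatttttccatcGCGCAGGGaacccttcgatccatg
nearest start W02H3.3, chrX:11094210-11094249, minus strand: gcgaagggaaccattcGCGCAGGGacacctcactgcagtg
nearest start col-185, chrX:13514542-13514581, plus strand: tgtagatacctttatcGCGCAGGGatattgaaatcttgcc
nearest start nspc-17, chrX:14525884-14525923, minus strand: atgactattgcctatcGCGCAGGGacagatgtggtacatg
nearest start F22H10.2, chrX:16682156-16682195, minus strand: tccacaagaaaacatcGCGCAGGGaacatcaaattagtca

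Outside the core the 11 stretches also shared letters. The base just before the core was C in 9 of 11, the base before that was T in 9 of 11, and the base just after it was A in 9 of 11. Further out the commonest base was shared by 8 of 11 at best, over the 6 positions to either side. The bases beside other copies of the core were not counted, so whether these letters are particular to the peaks is not known. The windows came from 8 intergenic places, 2 promoters and 1 intron, and none of the printed bases is annotated as an exon of a protein-coding gene.

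The strongest promoter, intron and intergenic peaks of X and the weakest X peak are shown next, as the 50 bp to each side of the summit, so that peaks with and without the core can be read side by side. Capitals mark GCGCAGGG, its last 7 letters CGCAGGG, and the 6-mer GAGAGA, the 6-mer GACGCA, the 6-mer AGAGAC, the 6-mer ACGCAG and the 6-mer ACGCGC, on either strand. These 5 had the largest excess near autosomal summits over their flanks among 2080 6-mers. They overlap one another: ACGCAG shares 5 letters with GACGCA, the 6-mer AGAGAC shares 5 with GAGAGA, and CGCAGGG lies inside the core.
strongest promoter peak, nearest start nspc-17, chrX:14525847-14525947, plus strand: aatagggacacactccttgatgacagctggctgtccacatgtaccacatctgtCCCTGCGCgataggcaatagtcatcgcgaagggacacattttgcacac
strongest promoter peak, nearest start fbxb-58, chrX:1627107-1627207, plus strand: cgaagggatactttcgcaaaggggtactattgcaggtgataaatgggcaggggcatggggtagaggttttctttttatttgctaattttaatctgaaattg
strongest promoter peak, nearest start ins-39, chrX:1345010-1345110, plus strand: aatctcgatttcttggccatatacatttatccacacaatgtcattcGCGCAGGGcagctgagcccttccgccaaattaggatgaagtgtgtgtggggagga
strongest intron peak, nearest start Y41G9A.17, chrX:2997029-2997129, plus strand: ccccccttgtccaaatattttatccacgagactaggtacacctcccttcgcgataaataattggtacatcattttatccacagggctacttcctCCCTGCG
strongest intron peak, nearest start cest-16, chrX:6296552-6296652, plus strand: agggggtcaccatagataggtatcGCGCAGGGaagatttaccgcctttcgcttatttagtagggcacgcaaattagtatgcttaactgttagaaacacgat
strongest intergenic peak, nearest start F19H6.5, chrX:12363143-12363243, plus strand: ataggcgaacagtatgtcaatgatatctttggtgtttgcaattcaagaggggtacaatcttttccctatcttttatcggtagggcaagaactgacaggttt
strongest intergenic peak, nearest start F20B6.9, chrX:4209243-4209343, plus strand: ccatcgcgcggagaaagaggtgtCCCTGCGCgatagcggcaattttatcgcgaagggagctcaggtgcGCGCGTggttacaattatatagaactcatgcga
weakest peak, nearest start sek-1, chrX:7809828-7809928, plus strand: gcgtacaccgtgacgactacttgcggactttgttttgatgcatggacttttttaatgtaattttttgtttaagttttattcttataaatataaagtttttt
Of these 8 windows, 4 held the core. The intron window near Y41G9A.17 held only the 7-letter form, cut off at the window's end, and the 8-letter core lay within 100 bp of that summit. The peak of highest signal on X, near F19H6.5, held no capitals, and neither did the promoter window of fbxb-58 or the weakest window.

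The highest signal among the core peaks was at position 4209293, in the stretch upstream of F20B6.9, where the deposited signal was 302 in the optimal set, 99.4 in replicate 1 and 217 in replicate 2. The signal is the authors' own value in the units of their peak caller, and whether different lists share a scale is not stated. Next came the summit upstream of nspc-17, at -716 bp from its start, negative being upstream, with 291 in the optimal set, 131 in replicate 1 and 180 in replicate 2. The summit near W02H3.3 had 289, with 110 in replicate 1 and 184 in replicate 2. These 3 peaks ranked between 34 and 58 among the 30000 entries of each replicate.

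The summit at 8036423 lay at -4890 bp from xol-1, the switch gene that sets male development in worms, and was the only one with 2 copies of the core within 50 bp. Its signal was 232 in the optimal set, 101 in replicate 1 and 142 in replicate 2. A further X peak with no core had its summit at 8036634 and a signal of 78.3. Both peaks overlap the same entry in each replicate, so these replicate values belong to the pair. A tRNA-Arg gene, C18A11.t2, lay 262 bp from the first summit and 51 bp from the second. The other promoter summit with a core, at -639 bp from ins-39, which encodes an insulin-like peptide, had 201, with 103 in each replicate. The intron summit lay inside mom-1, a gene for Wnt secretion of the Porcupine family, with 231, 97.1 and 145 in the same order of lists.

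The remaining cores were intergenic, near gtr-1 with a signal of 260, F22H10.2 with 197, T24D8.6 with 185, col-185 with 152 and dpy-23 with 67.4. The last of these stood apart from the other 10: its signal was near the X median, its width was 350 bp, and it ranked 1587 in replicate 1 and 1302 in replicate 2. The other 10 ranked between 34 and 190 in replicate 1 and between 35 and 489 in replicate 2. In replicate 2 the summit near col-185 was the lowest of these 10, with a signal of 67.0, against 82.8 in replicate 1.

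The 11 peaks with the core had a median signal of 231 (range 67.4 to 302), and the 294 X peaks without it had a median of 66.2 (range 48.6 to 342). The replicates showed the same order, with medians of 97.1 with the core and 27.6 without it in replicate 1, and 142 with it and 42.5 without it in replicate 2. The ranges overlapped, and the 2 strongest X peaks had no 8-letter core within 50 bp. The second of them, in the intron of Y41G9A.17, had the core within 100 bp. The plot of signal by kind of peak shows the core peaks above nearly all others on X.

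**Figure D1:**
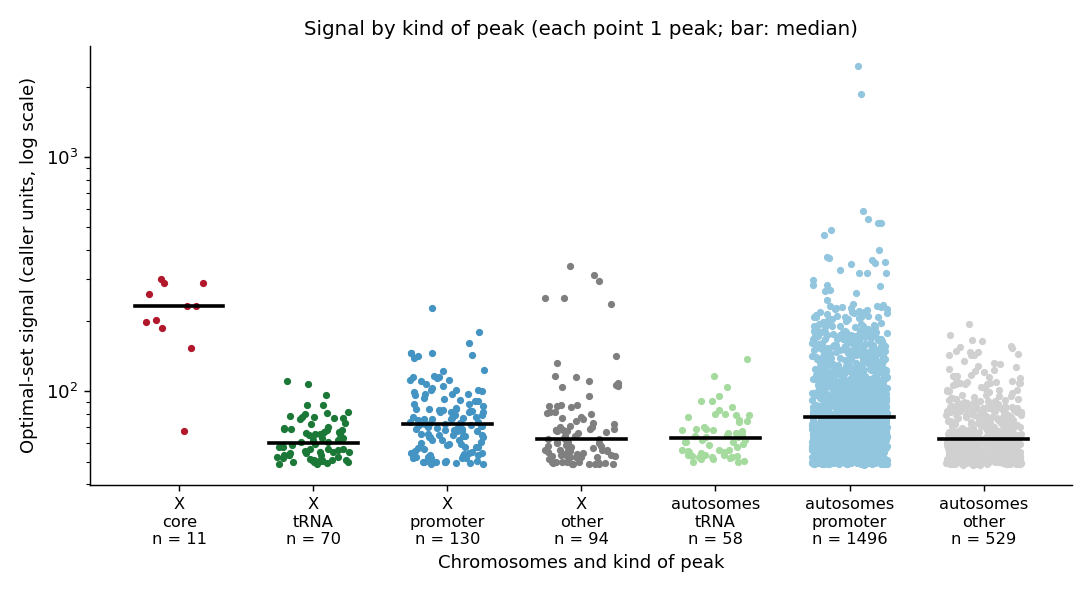
Deposited signal of each optimal-set peak (caller units, log scale), by chromosome and kind: peaks with the 8-letter MEX core within 50 bp of the summit, remaining peaks within 500 bp of a tRNA gene, remaining promoter peaks, and the rest. Bars are medians: 231, 60.0, 72.1 and 62.3 for the 4 kinds on X, and 62.7, 77.3 and 62.2 for tRNA, promoter and other peaks of the autosomes, whose single core peak (54.6) is not drawn.

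Each replicate gave a like picture by itself. Among as many top entries as the optimal set holds, replicate 1 had the core in 11 of 311 X entries and replicate 2 in 10 of 317. Of the 20 strongest X entries, 9 held it in replicate 1 and 8 in replicate 2, and none of the 20 strongest autosomal entries held it in either list. Within 100 bp of the summit, the count among the 20 strongest was 11 in replicate 1 and 10 in replicate 2.

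The core was not confined to peaks. It occurs 81 times on X (4.57 per Mb) and 233 times on the autosomes (2.82 per Mb). An optimal-set summit lay within 100 bp of 19 of the 81 X copies (23.5%, interval 14.8 to 34.2%) and of 2 of the 233 autosomal copies (0.858%, interval 0.104 to 3.07%). In the much longer pooled list, summits lay that close to 22 X copies (27.2%) and 18 autosomal copies (7.73%). Of all 101 bp windows tiled along the chromosomes, 0.0388% held the core on X and 0.0263% on the autosomes, and 2 of the 305 X flanks from 200 to 250 bp held it. A match of these letters is a description and not a mapped binding site.

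The shorter CGCAGGG was found at more autosomal summits. It lay within 50 bp in 15 X peaks (4.92%) and in 19 autosomal peaks (0.912%), and 13 of the 20 strongest X peaks had it. Tiled windows held it in 0.156% of cases on X and in 0.152% on the autosomes. All 24 letter strings that are 1 substitution away from the core were counted as well, after the values had been seen. The commonest of them at X summits, GCGAAGGG, lay in 7 X windows (2.30%) and 1 autosomal window (0.0480%), against 0.0730% of X tiles and 0.0551% of autosomal tiles. Of the 20 strongest X peaks 10 lacked the core, and GCGAAGGG was in 2 of those 10 and any of the 24 in 5. Over all peaks, some string of the 24 was in 23 X windows (7.54%) and 127 autosomal windows (6.09%).

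The core peaks were spread out. Neighbouring core summits were between 186340 and 3057763 bp apart, with a median of 1792091 bp.

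The 20 strongest X peaks lay in 12 intergenic places, 6 promoters and 2 introns, while all of the 20 strongest autosomal peaks lay in promoters. These sets are cut at unlike levels, down to a signal of 146 on X and of 299 on the autosomes. Outside promoters, autosomal signals reached 173 in intergenic places, 163 in introns and 194 in exons. The highest X peak, an intergenic summit at 12363193 near F19H6.5, had a signal of 342, with 125 in replicate 1 and 233 in replicate 2. The intron summit of Y41G9A.17 had 313, with 132 in replicate 1 and 190 in replicate 2. Further intergenic summits without the 8-letter core within 50 bp lay near ZK899.6 with 296, K02D3.1 with 249, T27A8.7 with 249 and F55G7.5 with 235. These 6 peaks ranked between 33 and 91 in replicate 1 and between 34 and 69 in replicate 2, so both replicates placed them near the top of their lists. The third intron summit by signal, in F09A5.3, had 115.4 in the optimal set, 44.1 in replicate 1 and 78.8 in replicate 2.

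Promoter peaks without the core began lower. The strongest were at fbxb-58, at -980 bp, with a signal of 226, and at C05G5.2, at -150 bp, with 178. The summit at -179 bp from sec-3, a subunit of the exocyst, had 161, with 87.2 in replicate 1 and 72.8 in replicate 2. The summit at -241 bp from F17E5.2 closed the 20 strongest with 146.

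Most of the strongest peaks on either set of chromosomes were narrower than the usual 350 bp: 17 of 20 on X and 18 of 20 on the autosomes. Over all peaks, 21 of the 305 X peaks (6.89%) and 254 of the 2084 autosomal peaks (12.2%) were narrower. In 92.8% of X peaks and 88.3% of autosomal peaks the summit coincided with the peak's centre. How precisely summits were placed is not stated, and their positions are taken here as approximate.

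At the other end, the weakest X peak lay in an intron of R03G5.6, with sek-1, a MAP kinase kinase of innate immunity, as the nearest start at -6856 bp. Its signal was 48.6, with 19.3 in replicate 1 and 42.3 in replicate 2. The next 2 were at the promoter of gakh-1 and in an intron of daf-12, a nuclear hormone receptor of dauer formation, both also 48.6.

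Peaks were fewer on X than its size would give. X carried 12.7% of the optimal set (interval 11.4 to 14.1%), with 17.7% of the nuclear genome length and 13.7% of the nuclear protein-coding genes. That came to 17.2 peaks per Mb, against 25.2 over all autosomes and a range of 16.6 (V) to 34.9 (III) among them. Per 100 protein-coding genes X had 11.2 peaks, and the autosomes had 12.1 together, with 6.95 on V. The top of replicate 1 gave 12.9% on X and that of replicate 2 gave 13.2%.

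The share of X changed along the ranking. It was 15% of the 100 strongest pooled entries (interval 8.65 to 23.5%), 8.60% of the 500 strongest (interval 6.29 to 11.4%) and 14.9% of the 5000 strongest (interval 14.0 to 16%). Replicate 1 had 16%, 9.40% and 15.2% at the same depths, and replicate 2 had 14.0%, 8.60% and 14.9%. In all 3 lists the share was thus lower at 500 entries than at 100 or at 5000, although the intervals at 100 and 500 entries overlap in each list.

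**Figure D2:**
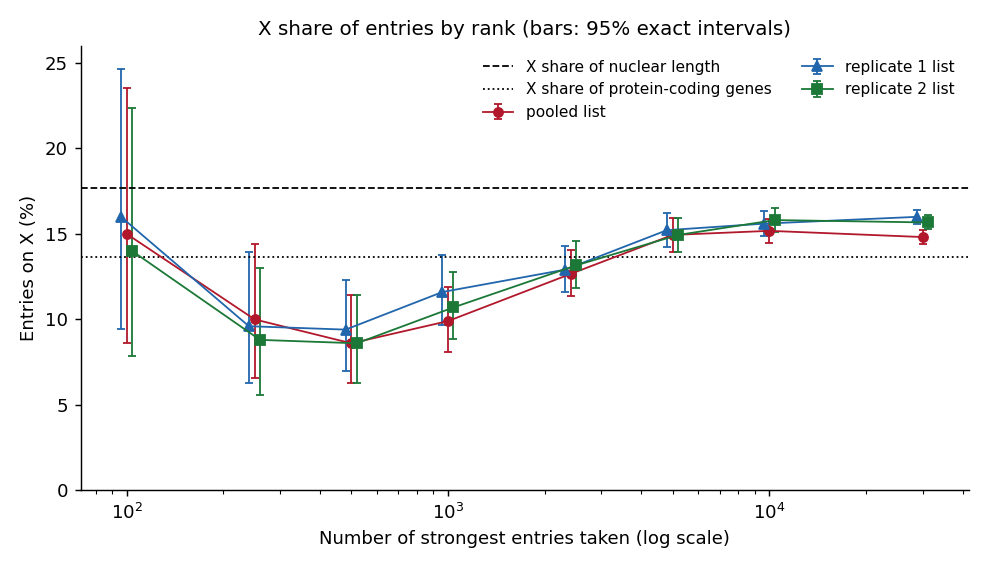
Share of entries on X (%) against the number of strongest entries taken (log scale), for the pooled list and each replicate, with 95% exact intervals. The pooled share was 15% at 100 entries, 8.60% at 500 and 14.9% at 5000; the dashed line is the share of X in nuclear length (17.7%) and the dotted line its share of protein-coding genes (13.7%).

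Summits on X lay in promoters less often than those of the autosomes. Promoters reach here from 1000 bp before a protein-coding start to 200 bp past it. Of the X summits 145 of 305 were in promoters (47.5%, interval 41.8 to 53.3%), against 1518 of 2084 on the autosomes (72.8%, interval 70.9 to 74.7%). Intergenic summits made up 102 on X (33.4%, interval 28.2 to 39%) and 285 on the autosomes (13.7%, interval 12.2 to 15.2%). Introns held 52 on X (17%) and 252 on the autosomes (12.1%), and exons held 6 on X (1.97%) and 29 on the autosomes (1.39%).

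The chromosomes differ in what they are made of, though by less. Of window middles tiled along X, 17.6% fell in promoters by the same rule and 32.3% were intergenic, and on the autosomes 22.3% fell in promoters and 23.5% were intergenic. In the top of replicate 1 the promoter share was 48.6% on X and 68.2% on the autosomes. In that of replicate 2 it was 50.2% on X and 72.9% on the autosomes. The intervals for X and the autosomes did not overlap in any of the 3 lists, for promoters or for intergenic summits.

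**Figure D3:**
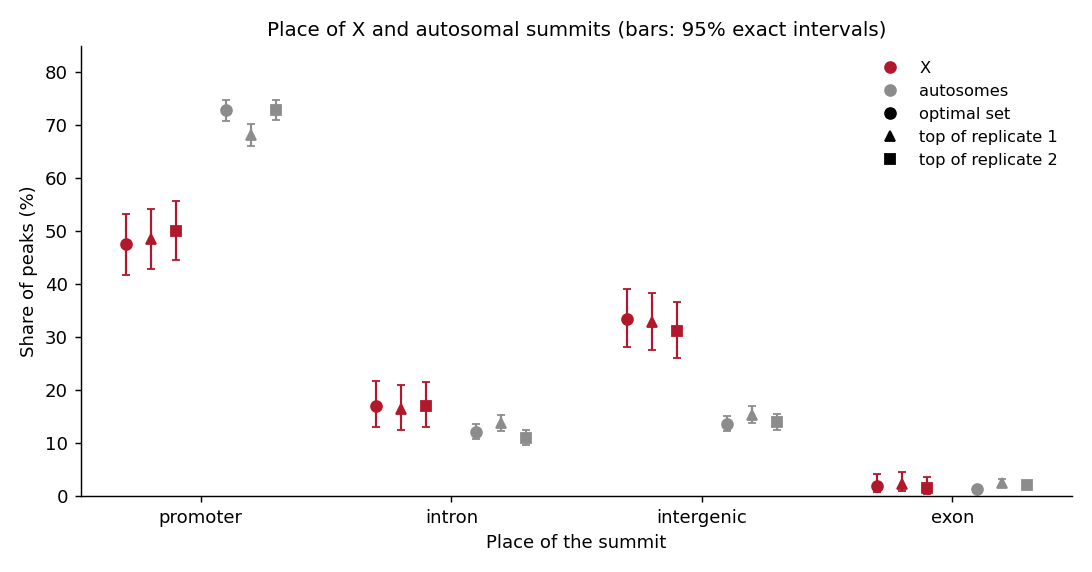
Share of summits (%) by place, for X (red, left of each pair) and the autosomes (grey), in the optimal set and in as many top entries of each replicate; bars are 95% exact intervals. Promoter shares are 47.5%, 48.6% and 50.2% on X and 72.8%, 68.2% and 72.9% on the autosomes.

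Promoter summits on X were seldom shared by genes on both strands. Of the 145, 17 lay in promoters of genes on both strands (11.7%, interval 6.98 to 18.1%), against 612 of the 1518 on the autosomes (40.3%, interval 37.8 to 42.8%). Replicate 1 gave 18 of 151 on X and 567 of 1418 on the autosomes, and replicate 2 gave 12.6% on X and 41.1% on the autosomes. How much of all promoter sequence serves genes on both strands was not measured for X or the autosomes. The difference can therefore not be told apart from one in gene arrangement.

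The nearest protein-coding start was farther away on X. The median distance, either way, was 872 bp (quartiles 250 and 2464) on X and 275 bp (quartiles 142 and 924) on the autosomes. With its sign, the median was -203 bp on X and -174 bp on the autosomes. Summits within 200 bp of a start made up 19.0% on X and 37.9% on the autosomes, and those more than 5000 bp away made up 7.54% on X and 4.27% on the autosomes. Within promoters the median position was -243 bp on X (quartiles -430 and -117) and -184.5 bp on the autosomes (quartiles -308 and -100). The plot of distances shows the X curve to the right of the autosomal one at both medians.

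**Figure D4:**
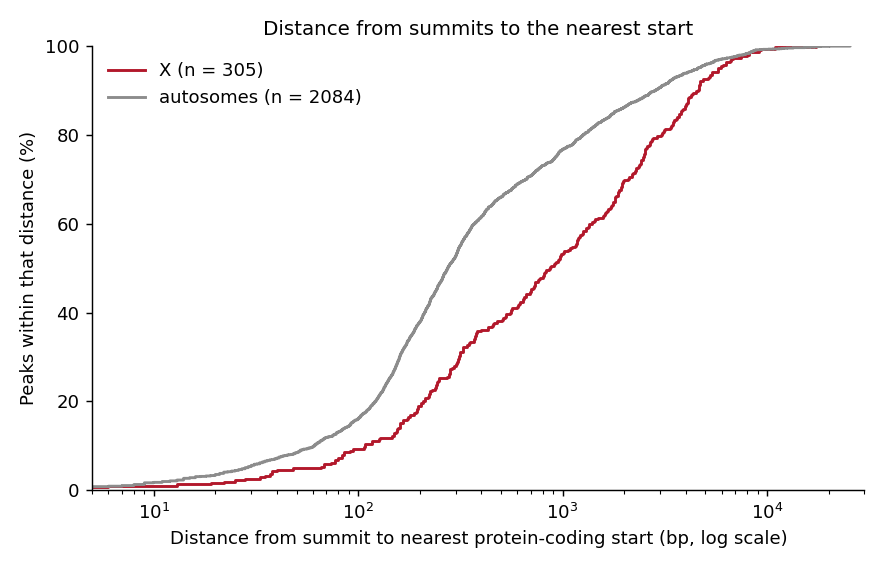
Percentage of peaks (vertical axis) whose summit lies within a given distance of the nearest protein-coding start (bp, log scale), for X and the autosomes. The X curve lies to the right, with medians of 872 bp on X and 275 bp on the autosomes.

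Few X genes had a promoter summit. There were 160 of 2731 protein-coding genes on X (5.86%, interval 5.01 to 6.81%) and 2160 of 17242 on the autosomes (12.5%, interval 12 to 13%), which makes 2320, or 11.6%, of the 19973 nuclear genes. In the top of replicate 1 the shares were 6.11% on X and 11.6% on the autosomes, and in that of replicate 2 they were 6.59% on X and 12.6% on the autosomes. Over all 30000 pooled entries the shares were 34.5% on X and 40.9% on the autosomes.

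The gene lists below were built from the starts of gene symbols, so they miss genes of the same function under other names. Their counts are to be read against the 5.86% of all X genes and 12.5% of all autosomal genes with a promoter summit. The list of translation genes had 5 X genes, of which 2 had a promoter summit, and 113 autosomal genes, of which 90 had one. The 2 were rpl-11.2, a ribosomal protein gene, with a signal of 141 in the optimal set, 45.5 in replicate 1 and 105 in replicate 2, and eef-1A.2, a translation elongation factor, with 84.5, 25.9 and 62.7. None of the 4 X genes of the proteasome and ubiquitin list had one, against 35 of 64 on the autosomes. With only 4 genes, this cannot be told apart from the autosomal share. The list of mitochondrial respiration and ribosome genes, as built from symbols, had no X member. X promoter summits were nevertheless found at oxidative phosphorylation genes that the list does not hold. Examples, chosen after their values were seen, were ucr-2.2 and ucr-2.1 of the cytochrome bc1 complex with signals of 139 and 101, sdha-1 of succinate dehydrogenase with 103, and asb-2 and asg-2 of the ATP synthase with 113 and 73.7. The ucr-2.1 summit also lay in the promoter of nmat-1, its nearest start, at -94 bp. How many such genes X carries was not counted, so no share is read from these examples.

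The trafficking list had the highest number of X genes with a promoter summit, though translation, with 2 of 5, had a slightly higher share. Of 18 X genes, 7 had a promoter summit (38.9%), against 40 of 93 autosomal genes (43.0%), where 11.6% of all nuclear genes had one. The strongest were sec-3, described above, vha-12, a subunit of the vacuolar ATPase, with 107 in the optimal set, 51.0 in replicate 1 and 57.1 in replicate 2, and vha-15, another subunit, with 101, 57.4 and 44.2. The others were sec-15 of the exocyst, vps-45, the sorting nexin gene snx-1 and apm-3 of the AP-3 adaptor, with signals from 49.1 to 70.2. The sec-15 summit lay 135 bp from the tRNA-Glu gene C28G1.t1.

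The X genes of regulatory lists were largely without summits in their promoters. None of 46 homeobox and other transcription factor genes had one, against 5 of 101 on the autosomes. None of 25 nuclear hormone receptor genes had one, against 13 of 246, and none of 21 chromatin genes, against 23 of 133. The 34 chemoreceptor genes of X had none, against 7 of 1172. By the rule of thumb of 3 divided by the number of genes, which is not an exact interval, a count of 0 allows up to 6.52% among 46 genes. Among 25 genes it allows up to 12%. Both limits lie above the X share of 5.86%, so a lower share is not detectable at these numbers of genes. Regulatory genes under other symbols are not covered by these counts. Some list members held summits outside their promoters. Examples, chosen after their values were seen, lay in introns of nhr-3 (signal 105), lin-14 (52.9 and 51.4) and daf-12 (48.6), and in an exon of unc-3 (60.4).

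In the list of dosage compensation and sex determination genes, 1 of 7 X genes had a promoter summit, a number too small to set against the 5.86% of all X genes. It was tra-4, a zinc finger gene that promotes female development, with 78.7 in the optimal set, 19.1 in replicate 1 and 54.7 in replicate 2. Both summits near xol-1 lay beyond its promoter as defined here. None of the 3 autosomal members had a promoter summit.

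Lists of muscle, nerve and cuticle genes had a few members each, to be read against 5.86% of all X genes and 12.5% of all autosomal genes, and several of their summits lay at tRNA genes. Muscle and attachment had 2 of 16 on X and 2 of 26 on the autosomes, the X genes being unc-115, an actin-binding protein of axons, with a signal of 74.1, and lev-9, which clusters acetylcholine receptors, with 66.9. The second summit lay inside the tRNA-Ala gene T07H6.t2 and also in the promoter of mom-1. Ion channels and innexins had 2 of 55 on X, glr-6 with 73.7 and lgc-25 with 56.4, and 3 of 129 on the autosomes. The glr-6 summit is the same one named above for asg-2, at -313 bp from glr-6 and -225 bp from asg-2. The lgc-25 summit lay 28 bp from the tRNA-Ser gene R03E1.t1. Cuticle and basement membrane had 2 of 40 on X, dpy-23 with 78.7 and the collagen gene col-185 with 68.8, and 9 of 190 on the autosomes; dpy-23 encodes a clathrin adaptor subunit and falls in this list by its name. The col-185 summit lay 42 bp from the tRNA-Pro gene H06A10.t1 and at -831 bp from the col-185 start. Neuropeptides and insulins had 1 of 34 on X, ins-39, and 1 of 106 on the autosomes.

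Of the last lists, signalling had 2 of 15 on X, kin-29, a salt-inducible kinase, with 70.5, and mom-1 with 66.9 at the tRNA-gene summit it shares with lev-9, and 9 of 57 on the autosomes. Synapse and axon guidance had 1 of 11 on X, sax-1, an NDR kinase gene, with 64, and 3 of 19 on the autosomes. Vitellogenins and lipid genes had none of 11 on X and 3 of 42 on the autosomes, and splicing and RNA processing had none of 1 on X and 27 of 47 on the autosomes. A low share on X cannot be read from so few genes.

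Peaks at tRNA genes were a large class on X. Of the 305 X summits 71 lay within 500 bp of a tRNA gene (23.3%, interval 18.7 to 28.4%), against 58 of 2084 on the autosomes (2.78%, interval 2.12 to 3.58%). X carries 276 annotated tRNA genes and the autosomes 336 together. The summit was inside the tRNA gene in 36 of the 71, and 70 of the 71 were within 200 bp. By place, 38 were intergenic, 19 were in introns of protein-coding genes, 13 were in promoters and 1 was in an exon.
The 2 strongest with the summit inside a tRNA gene are printed with GGTTCGA, the start of the B box as it is commonly written, in capitals on either strand.
M02F4.t1, a tRNA-Gly gene, chrX:3036128-3036228, plus strand: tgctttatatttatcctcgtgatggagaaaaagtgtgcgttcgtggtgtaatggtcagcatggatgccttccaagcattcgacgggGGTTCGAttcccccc
R04D3.t2, a tRNA-Val gene, chrX:13306999-13307099, plus strand: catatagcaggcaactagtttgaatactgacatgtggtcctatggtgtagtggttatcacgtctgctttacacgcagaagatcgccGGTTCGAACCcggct
These letters were in 25 of the 71 windows near tRNA genes and in 4 of the other 234 X windows, and in 0.649% of X tiles and 0.741% of autosomal tiles.

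Seen from the genes, 84 of the 276 X tRNA genes (30.4%, interval 25.1 to 36.2%) and 64 of the 336 autosomal ones (19.0%, interval 15 to 23.7%) had a summit within 500 bp, which is 24.2% of all 612. One summit can count for several neighbouring genes. Of the 276 X genes 273 could be matched to a RefSeq product, and all 20 amino acids among them had a summit at some gene. The most were 12 of 23 tRNA-Glu genes, and the fewest in share were 1 of 8 each for tRNA-Met and tRNA-Tyr. Many tRNA genes are near-identical copies, and how reads that fit several copies were placed is not given in the sources used here, so single tRNA genes are uncertain.

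Peaks near tRNA genes had a lower median signal than the rest of X. Apart from the summit near xol-1, the highest were at M02F4.t1 with a signal of 110 in the optimal set, 50.6 in replicate 1 and 55.5 in replicate 2, and at R04D3.t2 with 107, 48.8 and 58.5. The median of the 71 was 60.5, against 68.8 over the other 234 X peaks, and the 58 tRNA peaks of the autosomes had 62.7. In each replicate's own list the medians lay closer, with 28.2 near tRNA genes and 29 elsewhere on X in replicate 1, and 42.2 near them and 44.5 elsewhere in replicate 2. Without peaks near tRNA genes, 132 of 234 X summits were in promoters (56.4%, interval 49.8 to 62.9%), against 1497 of 2026 on the autosomes (73.9%, interval 71.9 to 75.8%).

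In the top of replicate 1, 53 of 311 X entries lay near a tRNA gene (17%), against 61 of 2078 autosomal ones (2.94%). In that of replicate 2 there were 61 of 317 on X (19.2%), against 54 of 2070 autosomal ones (2.61%).

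Other noncoding classes are annotated in very unequal numbers, and summits within 500 bp of them were counted beside those numbers. There were 2 near the 33 snoRNA genes of X (0.656%) and 85 near the 313 of the autosomes (4.08%). Near the 74 miRNA genes of X lay 1 summit and near the 187 of the autosomes 16. The 38 lincRNA genes of X had 2 and the 156 of the autosomes 18. The 178 pseudogenes of X had 3 and the 1950 of the autosomes 32. X has only 3 snRNA genes, with 1 summit, and the autosomes have 126, with 19. X has 162 piRNA genes, with 4 summits, and the autosomes have 15201, with 47. Among these classes, the share of genes with a summit was higher on X for snRNA (33.3% against 15.1%), piRNA (2.47% against 0.526%) and pseudogenes (1.69% against 1.54%). The X shares rest on 1, 4 and 3 summits, and for snRNA and pseudogenes the intervals of X and the autosomes overlapped. Near the broad class annotated as ncRNA there were 76 X summits (24.9%) and 285 autosomal summits (13.7%), with 2520 such genes on X and 5244 on the autosomes. Seen from those ncRNA genes, the order was the other way. A summit lay within 500 bp of 3.93% of them on X (interval 3.20 to 4.76%) and of 7.09% on the autosomes (interval 6.41 to 7.82%).

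The 5 autosomal 6-mers were also common at X summits. GAGAGA lay within 50 bp of 66 X summits (21.6%) and 453 autosomal ones (21.7%), against 7.87% of X flanks and 4.91% of X tiles. AGAGAC was in 15.4% on X and 17.5% on the autosomes, and ACGCAG in 13.8% on X and 15.6% on the autosomes. GACGCA was in 10.5% on X (interval 7.29 to 14.5%) and 16.2% on the autosomes (interval 14.6 to 17.8%), and ACGCGC in 10.5% on X and 14.4% on the autosomes. In X tiles these 4 were at 0.999% to 3.18%.

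These letters were counted by kind of X peak as well. GAGAGA was in 36 of 130 promoter peaks, 18 of 94 other peaks, 12 of 70 tRNA peaks and none of the 11 core peaks. AGAGAC was in 30 of the 130 promoter peaks and in 1 of the 70 tRNA peaks. The E-box CACGTG was in 21 X windows (6.89%, interval 4.31 to 10.3%) and 77 autosomal windows (3.69%, interval 2.93 to 4.6%), against 1.32% of X tiles and 1.74% of autosomal tiles. Of those 21, 9 were in promoter peaks and 12 in other peaks. GAGAGAGA, which contains GAGAGA, was in 11 X windows (3.61%) and 104 autosomal windows (4.99%), with 0.553% of X tiles. TGATAAG, a sequence that GATA factors are known to bind, was in 9 X windows (2.95%) but in 11 X flanks (3.61%), and in 62 autosomal windows (2.98%), with 1.77% of X tiles.

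The median signal of X peaks was near that of the autosomes, but both sets start from nearly the same lowest signal. It was 48.6 on X and 48.5 on the autosomes. Such a common cut draws medians together, so their closeness does not show that levels are alike. The median signal was 67.4 on X (quartiles 54.6 and 83.8, highest 342) and 70.3 on the autosomes (quartiles 57.8 and 98.3, highest 2453). By place, the X medians were 70.9 in promoters, 65.3 in intergenic places and 61.0 in introns, and the autosomal medians were 76.9, 62.0 and 62.0. In the top of replicate 1 the median was 28.8 on X and 30.4 on the autosomes, and in that of replicate 2 it was 43.6 on X and 45.3 on the autosomes. These tops are likewise cut at the same level for X and the autosomes. Among the 1204 strongest optimal-set peaks the medians lay further apart, at 87.3 on X and 97.5 on the autosomes.

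Nearly all X peaks were found in both replicates. An entry overlapped by at least 1 bp in replicate 1 for 303 of the 305 and in replicate 2 for 304, which leaves 302 with both. The exceptions were the promoter summits at lgc-25 and mgrn-1, with no entry in replicate 1, and at C34F6.7, with none in replicate 2. Each replicate list holds background as well as peaks, so an overlap alone is a weak requirement. Among the top 2409 entries were 67.9% of the X peaks in replicate 1, 82.6% in replicate 2 and 56.7% in both, against 75.5%, 84.9% and 63.3% of the autosomal peaks. All 11 core peaks were in both tops.

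The signal was mostly higher in replicate 2, on X as elsewhere. The log2 ratio of replicate 2 to replicate 1 had a median of 0.67 (SD 0.68, n = 302 peaks) on X and 0.66 (SD 0.65, n = 2056 peaks) on the autosomes, and it was above 0 at 260 X peaks (86.1%) and 1779 autosomal peaks (86.5%). How the lists were scaled against each other is not stated, so nothing about binding is read from this offset. Across the 302 X peaks the log2 signals of the replicates had a Pearson correlation of 0.55 and a Spearman correlation of 0.38, and without the 11 core peaks the values were 0.44 and 0.32. Over the 2056 autosomal peaks they were 0.57 and 0.49. The points share 2 libraries, and 8 X peaks share an entry with a neighbour in each replicate.

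**Figure D5:**
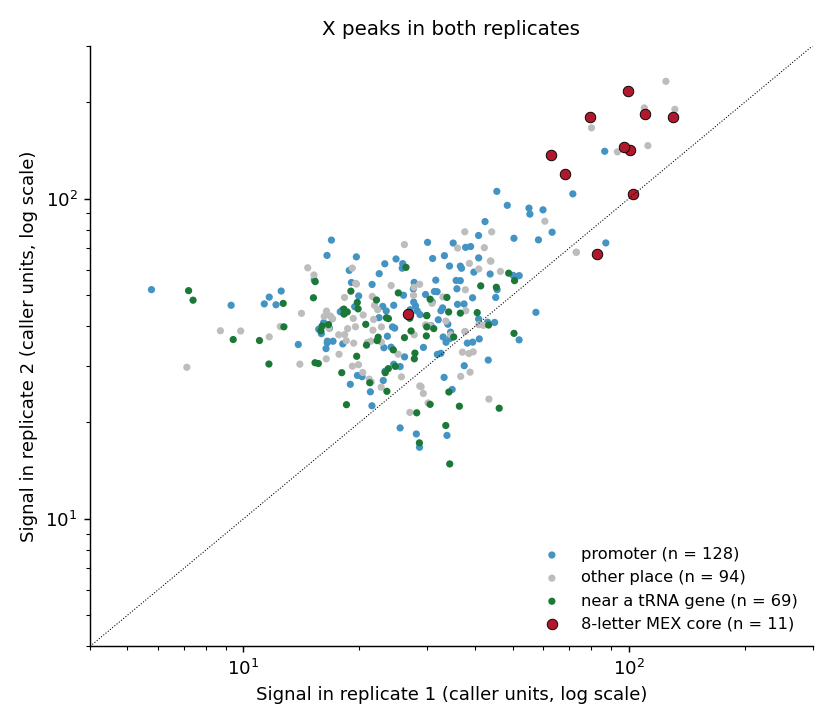
Signal of each X peak in replicate 1 (horizontal) and replicate 2 (vertical), in caller units on log scales, for the 302 peaks with an entry in both; the dotted line marks equal values. Points are coloured by kind, and 260 of the 302 lie above the line, with 10 of the 11 core peaks at the upper right.

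The 3 X peaks whose replicate ranks differed most were all low in replicate 1. The promoter summit of T14G11.1 had a signal of 5.77 and rank 27435 in replicate 1, but 52.0 and rank 893 in replicate 2. The intergenic summit near the histone H1 gene hil-3 had 7.21 and rank 20251, but 51.6 and rank 910. The intron summit of C52G5.2 had 7.40 and rank 19483, but 48.2 and rank 1047. Their optimal-set signals, from 55.8 to 61.9, lay below the X median.

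Along the chromosome the X summits were wide apart. The median gap between neighbours was 33750.5 bp on X (quartiles 9881.5 and 76166) and 20924 bp over the autosomes, with 33466.5 bp on V and 15329 bp on III. On X 5.25% of summits had a neighbour within 1 kb, 24.3% within 5 kb and 45.2% within 10 kb, and on the autosomes 6.91%, 36.7% and 53.8%. The longest stretch without a summit ran over 448491 bp, from 3127894 to 3576385, and held the starts of 71 protein-coding genes and 1 tRNA gene.

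No region of X was without peaks at the scale of 1 Mb. The 17 full bins of 1 Mb held between 12 and 29 summits each. Bins with more gene starts tended to have more promoter summits, with a Pearson correlation of 0.49 and a Spearman correlation of 0.44 over the 17 bins. For tRNA genes and the summits near them the values were 0.81 and 0.48. The bins share the same libraries and neighbour one another, so these are descriptions. The bin from 8 to 9 Mb had 51 tRNA genes and 11 of the tRNA summits, the most of both. The bin from 14 to 15 Mb had the most summits, 29, of which 20 were in promoters. The bin from 16 to 17 Mb had 22 summits but only 1 in a promoter, with 108 gene starts and 32 tRNA genes.

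At the finer scale of 100 kb, 131 of the 178 windows held a summit and 23 held 4 or more. The densest held 6, in 3 windows that tied. The first, chrX:6200001-6300000, had summits at the promoters of bca-1, a beta carbonic anhydrase, T13C5.6 and lev-9, in introns of lev-9 and mom-1, and near W05H9.4, with signals from 57.4 to 231. Its 2 lev-9 summits lay inside tRNA-Ala genes, T07H6.t1 and T07H6.t2. The second, chrX:13300001-13400000, had them at F46G10.4 and F02C12.3, in an intron of the sirtuin gene sir-2.2, inside the tRNA-Val gene R04D3.t2 beside the chemoreceptor gene srd-43, and at 2 places near mxl-3, a gene of the Max family, with signals from 48.7 to 107. The third, chrX:14700001-14800000, had them at the promoters of C05G5.2, sucl-1, tatn-1, the tyrosine aminotransferase gene, and tmem-184, upstream of the last and in an exon of unc-3, with signals from 49.8 to 178.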

How the data were processed

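ChIP-seq peak lists of 2 biological replicates of whole worms were used as deposited. Per the files' accompanying notes, the optimal set was derived from the pooled list and both replicate lists. The aligner, the caller and its settings were not given in the sources used here. Only the deposited signal values were used, in the units of the authors' caller, which rank peaks within a list. Depth is unknown. Coordinates are 1-based on ce11. Gene models came from Ensembl release 115 and tRNA products from RefSeq; places were taken in the order promoter, exon, intron, intergenic. Replicate values are those of the overlapping entry of highest signal. Promoter assignment, overlap matching, a motif search on either strand and the exact intervals were first tested on simulated data, and the other steps were not. The work was done with Python 3.11.15, pandas 2.3.3 and scipy 1.17.1.

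The peaks, gene lists and motifs were chosen with earlier results of these data known, and the core counts and the division of peaks by kind after values had been seen. Named genes were those at the 20 strongest, 3 strongest intron, 3 strongest intergenic and 3 weakest X peaks, up to 3 X genes per list, the densest 100 kb windows, and the 3 peaks of most unequal replicate rank. The 5 oxidative phosphorylation genes, and others named for a count, a shared summit or a summit outside their promoters, were chosen after their values were seen. Alternatives were each replicate's own list, the 1204 strongest optimal-set peaks, ce10, other promoter spans, gene models, distances and overlaps. No control library was analysed here, and ce10 replicate lists were not used.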

Additional observations from a re-analysis of the deposited data

How the results depend on the processing

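Of 43 alternatives over 9 results, 28 kept their value within its interval or the spread between replicates, 15 moved and none reversed; those that leave out peaks near tRNA genes or peaks with the core, and all those on the core count, were chosen after seeing the data. Among the 1204 strongest optimal-set peaks, the X share was 11%, the promoter share 57.9%, the share of X genes 3.26%, the median signal 87.3, the median gap 97975.5 bp and the tRNA share 13.5%; fewer and stronger peaks are counted there by construction. The promoter share was 35.7% with promoters from 500 bp upstream to 100 bp downstream, 57.4% with 2000 to 500 bp, and 56.4% without peaks near tRNA genes; the autosomal share was 63.2% and 81.3% with those 2 spans and 73.9% without tRNA peaks. The share of X genes was 4.43% and 7.73% with the 2 spans, and that of autosomal genes 10.3% and 15.7%. With summits assigned to the nearest start alone, the gene share was 5.20% on X and 8.70% on the autosomes.

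Leaving out a replicate gave an X share of 12.9 to 13.2%, a promoter share of 48.6 to 50.2%, a gene share of 6.11 to 6.59%, a median signal of 28.8 to 43.6 on the replicates' own scales, a median distance of -229 to -193 bp, a median gap of 32846.5 to 35231 bp, a tRNA share of 17 to 19.2%, and 8 to 9 core peaks among the 20 strongest. No paired analysis was possible because both replicates form a single group. The unknown depth limits all values: a place without a peak is only one not called here.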
